A study of Mus musculus with 4 samples.

Results

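The 10 genes described here encode proteins of the nuclear lamina and of the inner nuclear membrane: *Lmna*, *Lmnb1*, *Lmnb2*, *Lbr*, *Lemd2*, *Lemd3*, *Tmpo*, *Banf1*, *Sun1* and *Sun2*. They were chosen by symbol among the 24026 genes of the allele-specific expression table, by a rule that uses no expression value, and each symbol was found once. Their transcripts were read by strand-specific sequencing of polyA RNA, with paired reads of 150 bp, in 4 libraries of untreated F123-ESCs. F123 is a male hybrid mouse ESC line with the genotype S129/CAST, in which the S129 copy of each autosome is maternal and the CAST copy is paternal. All 4 libraries are of this line, so that the effect of a strain's sequence and that of the parent it came from cannot be told apart. The cells were grown on inactivated feeder fibroblasts, then passaged without feeders, and harvested after about 48 h. Nothing in the labels says that the libraries came from separate cultures, so p-values measure the spread between these 4 samples, which may be technical.

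The nuclear lamina is a meshwork of intermediate filament proteins, the lamins, under the inner nuclear membrane. A-type lamins come from *Lmna*, by alternative splicing, and B-type lamins from *Lmnb1* and *Lmnb2*. Membrane proteins such as the lamin B receptor and the LEM-domain proteins hold chromatin at the lamina, and SUN proteins connect it across the nuclear envelope to the cytoskeleton. Heterochromatin is found mainly at the lamina and around nucleoli, the compartment that the study as a whole mapped.

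A single value was deposited for *Lmna*, whose annotated splice forms differ in where their reading frames end. The last 30 bases of 3 annotated coding sequences (GENCODE M21, mm10) are shown, with the codons of the farnesylation box, where present, in capitals and the stop codon last.
Lmna-201, which encodes lamin A: cagagctcccagaacTGCAGCATCATGtaa
Lmna-203, which encodes lamin C: caccaccgtgtgagtggcagccgccgctga
Lmnb2-201, which encodes lamin B2: actacctcaaggggcTGCCGACTGATGtga
The end of lamin A lies within chromosome 3, 88482074 to 88482348, across a splice junction, that of lamin C at 88483297 to 88483326 in 1 exon, and that of lamin B2 on chromosome 10 at 80902859 to 80902888, all on the minus strand. The box is present in lamin A and lamin B2 and absent from lamin C. Since 1 value was deposited for the whole gene, lamin A and lamin C could not be separated.

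Expression of the group covered a 71.2-fold range. Its median was 25.7 RPKM, the mean of both alleles, against 7.79 RPKM for the 13341 genes whose alleles together averaged at least 1 RPKM, and all 10 genes passed this filter. Only reads that cover a SNP between S129 and CAST were assigned to an allele, so a level also depends on where a gene carries SNPs, and an order between genes is approximate. *Banf1*, a small DNA-binding protein that bridges chromatin and LEM-domain proteins, and *Lmnb1* stood highest, with 66.4 ± 3.79 and 64.6 ± 10.9 RPKM (SD, n = 4). They were followed by *Lbr*, the receptor for B-type lamins and heterochromatin, with 44.8 ± 6.08 RPKM (SD, n = 4). *Tmpo*, which encodes the LAP2 proteins, had 38.5 ± 2.81 RPKM (SD, n = 4). *Sun1* and *Lmnb2* were close, with 26.3 ± 2.64 and 25.1 ± 3.22 RPKM (SD, n = 4). *Lemd2* had 18.96 ± 1.87 and *Lmna* 14.5 ± 1.83 RPKM (SD, n = 4). At the low end were *Sun2*, with 3.48 ± 0.36 RPKM, and *Lemd3*, which encodes MAN1, with 0.933 ± 0.262 RPKM (SD, n = 4).

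Neighbours in this order were compared over libraries. *Banf1* and *Lmnb1* could not be ordered, since each was higher in 2 of the 4 libraries. The ranges of *Lbr* and *Tmpo* overlapped, although *Lbr* was higher in 4 of 4 libraries. *Sun1* and *Lmnb2* also overlapped, with *Sun1* higher in 3 of 4. The other 6 neighbouring pairs had ranges that did not overlap.

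**Figure D1:**
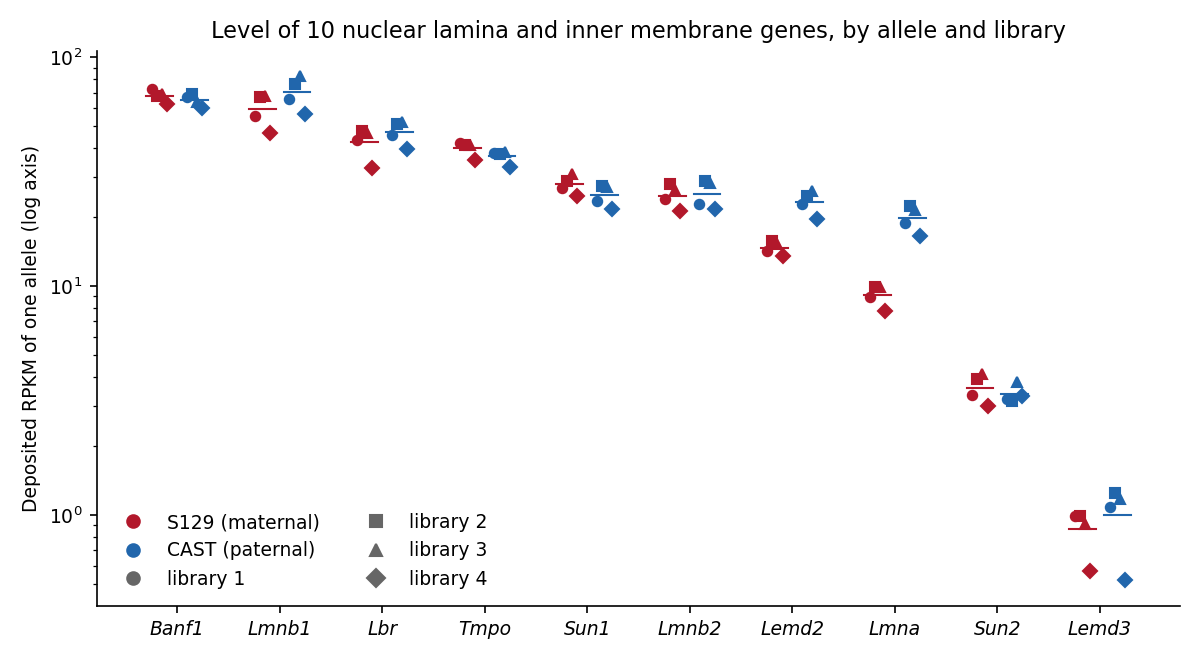
Deposited RPKM of each allele (log axis) for the 10 genes, ordered by their mean level, with S129 in red and CAST in blue, a symbol for each of the 4 libraries and a line at the mean. *Lmna* and *Lemd2* are the genes whose S129 and CAST points do not overlap, and library 4 lies low for most genes.

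The order also depended on the gene length behind the RPKM. For 8 genes the steps between the deposited values matched the length of an annotated transcript, whereas for *Banf1* and *Lemd2* the smallest length that fits was taken. For *Lmna*, with 3948 bp, and *Sun2*, with 4052 bp, the matched transcript is a form with a retained intron. Lmna-201, which encodes lamin A, has 3156 bp, and the level of *Lmna* would be higher over that length. For *Tmpo* this length was 3533 bp, while all its annotated exons together span 10998 bp. With the same reads divided by the length of all exons, *Tmpo* had 12.4 ± 0.903 RPKM (SD, n = 4) and went from the fourth to the sixth place. *Banf1*, with 735 bp against 1496 bp of exons, had 32.6 ± 1.86 RPKM (SD, n = 4) and went from the first to the third. *Lmnb1* then stood alone at the top with 62.0 ± 10.5 RPKM (SD, n = 4), and *Lemd2*, *Lmna*, *Sun2* and *Lemd3* had the 4 lowest means. *Sun1* fell to 14.3 ± 1.44 and *Lemd2* to 10.1 ± 0.998 RPKM (SD, n = 4) on this scale. *Lemd2* and *Lmna* then overlapped, with *Lemd2* higher in 3 of 4 libraries, and *Lbr* and *Banf1* could not be ordered, with each higher in 2 of 4. The ranges of *Sun1* and *Tmpo* overlapped as well, although *Sun1* was higher in 4 of 4. The median of the group was 13.4 RPKM.

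**Figure D2:**
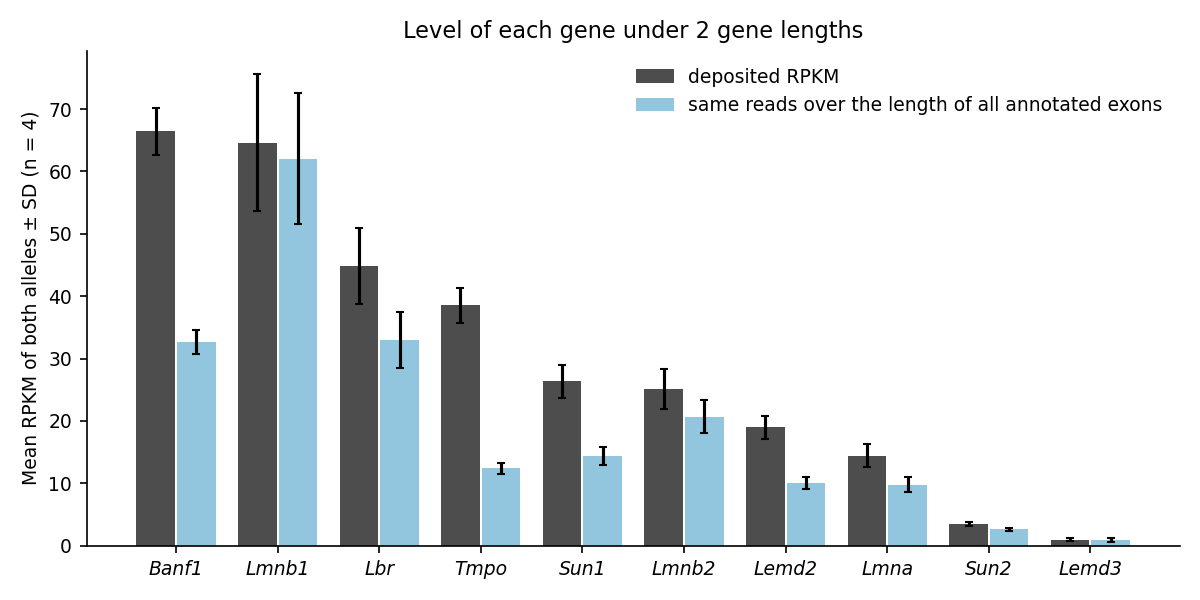
Mean RPKM of both alleles with its SD over 4 libraries, as deposited (dark bars) and with the same reads over the length of all annotated exons (light bars). *Tmpo* and *Banf1* have the largest drops, to 12.4 and 32.6 RPKM, and *Lmnb1* changes little.

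The A-type and B-type lamins and the paralogues were compared within each library. *Lmnb1* was above *Lmna* by a mean difference in log2(RPKM + 0.1) of 2.15 ± 0.08 (SD, n = 4), or 4.42-fold, and *Lbr* was above *Lmna* by 1.62 ± 0.04 (SD, n = 4). Of the B-type lamins, *Lmnb1* was above *Lmnb2* by 1.36 ± 0.09 (SD, n = 4). *Sun1* was above *Sun2* by 2.88 ± 0.06 (SD, n = 4), a 7.38-fold difference. Of the LEM-domain genes, *Lemd3* was below *Lemd2*, with a difference of -4.24 ± 0.31 (SD, n = 4), which was -3.36 with the length of all annotated exons and -3.37 with a pseudocount of 1. Each of these 5 differences had the same sign in 4 of 4 libraries and was larger than its spread. The SNPs of a gene are the same in every library, so agreement between libraries cannot show their part in these differences. That part was not tested. The two-sided exact sign-flip permutation test gave p = 0.13 for each pair, also after adjustment over the 5 pairs, which is the smallest value that 4 libraries allow, so that none could pass 0.05.

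Library 4 gave the lowest value for all 10 genes, which was so for 53.5% of the 13341 tested genes. It also had the fewest reads, 34120416 on both alleles, against 48178422 to 56627972 in the other libraries. *Lemd3* stood out, with 1.04, 1.11, 1.04 and 0.543 RPKM in libraries 1 to 4. *Lmnb1* had 60.2, 71.8, 75.2 and 51.3 RPKM, and *Lbr* had 44.5, 49.1, 49.3 and 36.3 RPKM. *Lmna* had 13.9, 16.1, 15.7 and 12.1 RPKM. The ratio of library 4 to the mean of the others had a median of 0.826 over the 10 genes and 0.911 over the tested genes. With each column scaled by the median of ratios over autosomal genes, these medians were 0.9 and 0.992, and library 4 remained lowest for 9 of the 10 genes, with *Banf1* the exception, against 36.3% of the tested genes. The part of depth in this was not tested.

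Between the alleles, *Lmna*, *Lemd2*, *Lmnb1* and *Lbr* were higher on CAST, and *Sun1* and *Tmpo* were higher on S129. These 4 and 2 genes passed limma's test within libraries at an adjusted p under 0.05, while *Banf1*, *Sun2*, *Lmnb2* and *Lemd3* did not. Of all 13341 tested genes, 31.3% were called higher on CAST and 31.4% higher on S129, together 62.7%, so that the share of the group that was called is near that of all genes. Each deposited column is divided by its own total of reads, which was larger for S129 than for CAST in every library. An autosomal gene with equal reads on both alleles thus has a lower RPKM on S129. With whole reads not divided by this total, the median difference of the tested genes was 0.05 on the log2 scale. Then 35.0% were called higher on S129 and 26.8% on CAST, with 2 and 3 genes of the group, and *Lbr* was not called (limma, adjusted p = 0.127). With autosomal values rescaled to one sum per column, which moved the median difference of the tested genes from -0.0034 to 0.10 on the log2 scale, 38.4% were called higher on S129 and 23.0% on CAST, and 3 genes of the group were called on each allele. The same allele was higher in 4 of 4 libraries for 6 of the 10 genes and for 71.9% of the tested genes. The absolute difference had a median of 0.16 on the log2 scale over the 10 genes and 0.31 over the tested genes. These sets were not matched for level, with medians of 25.7 and 7.79 RPKM.

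**Figure D3:**
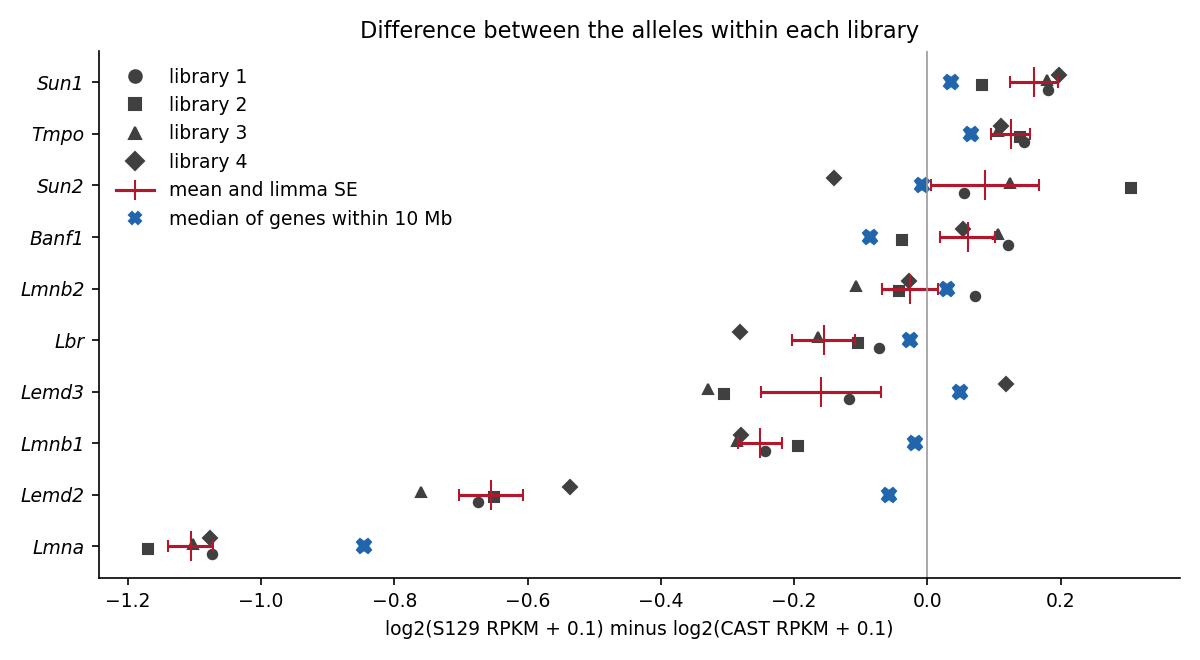
Difference between the alleles, log2(S129 RPKM + 0.1) minus log2(CAST RPKM + 0.1), for each gene and library (black symbols), with the mean and its limma SE (red) and the median of the tested genes within 10 Mb (blue crosses). *Lmna* and *Lemd2* lie farthest from 0, and for *Lmna* the genes around it are shifted as well, to -0.85.

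*Lmna* (ENSMUSG00000028063, chromosome 3, 88480147 to 88509956, mm10) had the largest difference of the group. Its S129 values were 8.92, 9.88, 9.94 and 7.76 RPKM in libraries 1 to 4, and its CAST values were 18.9, 22.3, 21.5 and 16.5 RPKM. The alleles did not overlap. The difference was -1.11 ± 0.03 on the log2 scale (SE, n = 4; limma, adjusted p = 4.0e-05), or 2.15-fold higher on CAST. It was the 1 gene of the 10 called with at least 2-fold on CAST, as 5.43% of the tested genes were. The reads behind it gave an S129 share of 32.8% in library 1 (exact 95% binomial interval 31.1 to 34.5), 31.6% in library 2 (29.9 to 33.2), 32.5% in library 3 (30.8 to 34.2) and 32.9% in library 4 (30.6 to 35.2).

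The genes around *Lmna* were shifted in the same direction. Of the 203 other tested genes within 10 Mb, 172 were called higher on CAST and 10 higher on S129, and their median difference was -0.85 on the log2 scale. The S129 share of *Lmna* averaged 32.4% ± 0.609 (SD, n = 4), and the median of these genes was 36.3%, with quartiles of 32.3% and 40.5%. Of the 203 genes, 53 had a lower share than *Lmna*. With the median of the genes within 10 Mb taken out in each library, the difference of *Lmna* was -0.26 (limma, adjusted p = 0.00497). Over chromosome 3 as a whole, the median difference was -0.74.

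**Figure D4:**
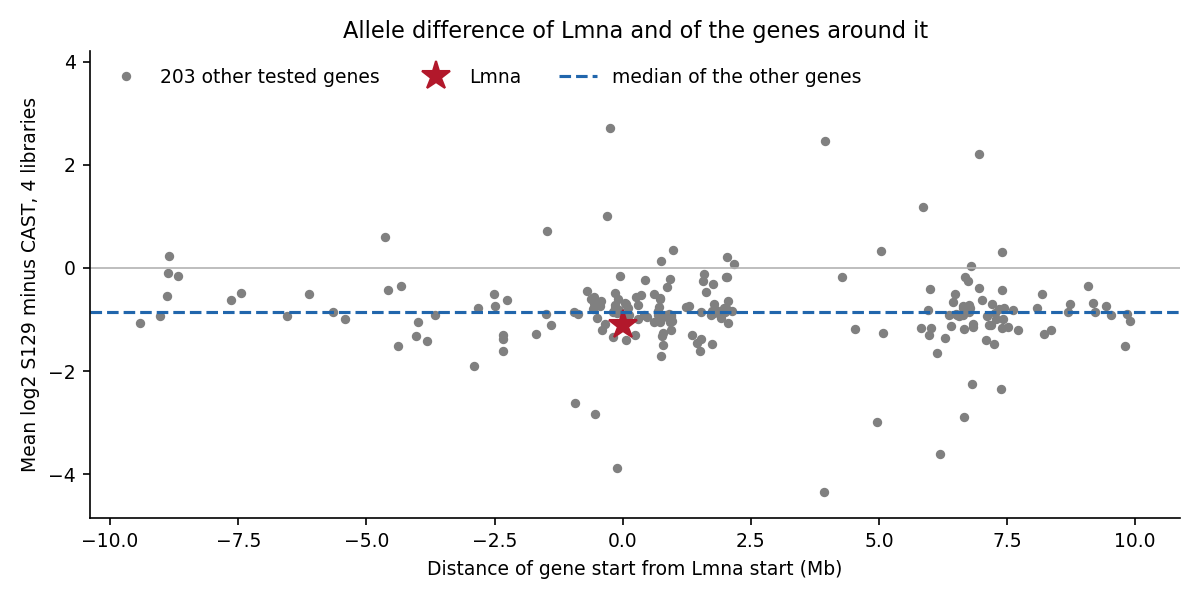
Mean difference between the alleles (log2, S129 minus CAST, 4 libraries) of *Lmna* (star) and of the 203 other tested genes within 10 Mb, against the distance of their start from that of *Lmna* in Mb. Most points lie below 0, around a median of -0.85 (dashed line), and *Lmna* at -1.11 lies within their spread.

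*Lemd2* (ENSMUSG00000044857, chromosome 17, 27189600 to 27204469), a LEM-domain protein of the inner membrane, had S129 values of 14.2, 15.7, 15.3 and 13.5 RPKM and CAST values of 22.7, 24.7, 26.0 and 19.6 RPKM in libraries 1 to 4. The alleles did not overlap here either, so that this held for *Lmna* and *Lemd2*, 2 of the 10 genes, with CAST higher, as for 22.2% of the tested genes. The difference was -0.65 ± 0.05 on the log2 scale (SE, n = 4; limma, adjusted p = 0.000497), or 1.57-fold higher on CAST. In contrast to *Lmna*, the genes around *Lemd2* were balanced. The S129 share of *Lemd2* averaged 39.7% ± 1.56 (SD, n = 4) beside a median of 49.8% over the 321 other tested genes within 10 Mb, of which 30 had a lower share. The difference was -0.60 with the local median taken out (limma, adjusted p = 0.000947).

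*Lmnb1* (ENSMUSG00000024590, chromosome 18, 56707813 to 56753424) was higher on CAST by a smaller amount. Its S129 values were 55.1, 67.0, 67.8 and 46.4 RPKM and its CAST values were 65.3, 76.6, 82.7 and 56.3 RPKM. The ranges of the alleles overlapped, since the libraries differed more than the alleles did, but CAST was higher in 4 of 4 libraries. The difference was -0.25 ± 0.03 on the log2 scale (SE, n = 4; limma, adjusted p = 0.00339), and -0.23 with the local median taken out (limma, adjusted p = 0.00535). Without pairing of the alleles by library the adjusted p was 0.23. *Lmnb2* (ENSMUSG00000062075, chromosome 10, 80901203 to 80918245) had 24.8 ± 2.89 RPKM on S129 and 25.3 ± 3.64 RPKM on CAST (SD, n = 4), and its difference of -0.03 ± 0.04 (SE; limma, adjusted p = 0.61) changed sign with the scaling of the columns.

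*Lbr* (ENSMUSG00000004880, chromosome 1, 181815335 to 181843046) had S129 values of 43.4, 47.3, 46.5 and 32.8 RPKM and CAST values of 45.6, 50.9, 52.1 and 39.8 RPKM. CAST was higher in 4 of 4 libraries, by -0.16 ± 0.05 on the log2 scale of S129 minus CAST (SE, n = 4; limma, adjusted p = 0.0429). This call was lost when any 1 of the 4 libraries was left out (adjusted p from 0.065 to 0.128) and when the local median was taken out (adjusted p = 0.0966). With autosomal values rescaled to one sum the difference was -0.05 (adjusted p = 0.478), and without pairing by library the adjusted p was 0.391. Exons of *Lbr* share 440 bp with *Dnah14* on the opposite strand, and the strand setting of the counting is not given in the sources used here.

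*Sun1* (ENSMUSG00000036817, chromosome 5, 139200637 to 139249840) was higher on S129. Its S129 values were 26.7, 28.8, 30.8 and 24.8 RPKM, and its CAST values were 23.6, 27.2, 27.1 and 21.6 RPKM. The difference was 0.16 ± 0.04 (SE, n = 4; limma, adjusted p = 0.0173), in 4 of 4 libraries. The call was lost without library 1, 3 or 4 (adjusted p = 0.0678, 0.0731 and 0.0504). *Sun2* (ENSMUSG00000042524, chromosome 15, 79724070 to 79742536), its paralogue, had 3.60 ± 0.525 RPKM on S129 and 3.37 ± 0.291 RPKM on CAST (SD, n = 4), and the difference of 0.09 ± 0.08 did not pass (SE; limma, adjusted p = 0.401).

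*Tmpo* (ENSMUSG00000019961, chromosome 10, 91147571 to 91181315) had S129 values of 42.3, 41.5, 41.5 and 35.7 RPKM and CAST values of 38.3, 37.6, 38.5 and 33.0 RPKM. S129 was higher in 4 of 4 libraries, by 0.13 ± 0.03 (SE, n = 4; limma, adjusted p = 0.0203). The call was lost without library 1, 2 or 3 (adjusted p = 0.0764, 0.0852 and 0.0687) and with the local median taken out, where the difference was 0.06 (adjusted p = 0.198).

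*Banf1* (ENSMUSG00000024844, chromosome 19, 5364638 to 5367168) had 67.8 ± 4.31 RPKM on S129 and 65.0 ± 4.00 RPKM on CAST (SD, n = 4), and its difference of 0.06 ± 0.04 did not pass (SE; limma, adjusted p = 0.259). Its exons share 428 bp, 28.6% of their length, with *Eif1ad* on the opposite strand, so its level is uncertain. *Lemd3* (ENSMUSG00000048661, chromosome 10, 120923413 to 120979332) rested on 41 to 145 reads per allele and library. Its S129 share was 53.4% in library 4, with an exact 95% binomial interval of 42.5 to 64.1, against 44.7% to 48.6% in the others. The difference of -0.16 ± 0.09 did not pass (SE; limma, adjusted p = 0.19), and passed without library 4, with -0.25 (adjusted p = 0.0362). These intervals hold the error of counting alone, and whether PCR copies of a molecule were removed is not given in the sources used here.

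Of 29 other genes of the nuclear envelope and its partners, 23 passed the filter, of which 10 were called higher on CAST, 8 higher on S129, of which 1 is X-linked, and 5 neither, beside the 31.3% and 31.4% of all tested genes. Among 5 genes of lamin processing, which farnesylate prelamins and then process their end, all were tested, with 2 called on each allele, and *Fnta*, a farnesyltransferase subunit, had the highest level, 52.1 ± 3.26 RPKM (SD, n = 4). *Emd*, which encodes emerin and lies on the X chromosome, on which a male cell has a maternal copy alone, was highest among the other LEM-domain and BAF partners, with 138 ± 13.4 RPKM on S129 and 0.0184 ± 0.0242 RPKM on CAST (SD, n = 4). *Banf2* had the lowest value there, with 0.0631 ± 0.048 RPKM (SD, n = 4). In the list of further genes of the LINC complex, which joins nucleus and cytoskeleton, *Syne2* was highest with 52.4 ± 2.56 RPKM (SD, n = 4), while *Sun5*, a testis SUN protein, had 0.00421 ± 0.00842 RPKM (SD, n = 4). Among other lamina-linked membrane proteins, *Tor1a* had 43.3 ± 0.876 RPKM (SD, n = 4), and *Prr14* was listed at 0 in every library. Only reads over a SNP between the strains were assigned, so a value at or near 0 need not mean that a gene is silent. Of the chromatin partners, *Cbx3*, which encodes HP1 gamma, was highest with 201 ± 31.2 RPKM (SD, n = 4). Besides *Emd*, no gene of these lists was called with at least 2-fold.

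The label of the cells was compared with marker genes. All 8 pluripotency markers were above 1 RPKM, with a median of 105 RPKM, from *Pou5f1* with 29.5 ± 4.08 to *Tfcp2l1* with 583 ± 37.6 RPKM (SD, n = 4). Fibroblast markers had a median of 3.63 RPKM, with *Col1a2* at 166 ± 17.5 RPKM (SD, n = 4) and *Lum* at 0.0462 ± 0.0231 RPKM (SD, n = 4). Their summed level was 179, 210, 224 and 190 RPKM in libraries 1 to 4, most of it from *Col1a2*. Primitive endoderm markers had a median of 1.21 RPKM, with *Dab2* at 44.2 ± 2.85 and *Sox7* at 0.273 ± 0.019 RPKM (SD, n = 4). Neural progenitor markers had a median of 0.835 RPKM, with *Nes* at 76.2 ± 8.51 RPKM (SD, n = 4) and *Olig2* listed at 0. The part of other cell types in the levels of the lamina genes was not tested, and in bulk RNA a change in their number cannot be told apart from a change in RNA per cell.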

How the data were processed

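RNAseq of 4 libraries of untreated F123-ESCs was used. The authors filtered ribosomal RNA (SortMeRNA), trimmed reads (Trimmomatic 0.40, also named in the submitters' processing notes), aligned them with STAR to mm10 masked at strain SNPs and divided them with SNPsplit. They deposited RPKM per gene, allele and library, with averages and their log10, which were not used. The counting program and annotation are not given in the sources used here. Whole reads were recovered from the steps of the deposited RPKM for 99.5% of the genes above 0, at a tolerance of 0.02 reads. Totals were 16716721 to 28772351 reads per allele and library. Genes were matched to GENCODE M21 (23995 of 24026).

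Alleles were compared by limma 3.58.1 (R 4.3.3) on log2(RPKM + 0.1), S129 minus CAST within each library, over 13341 genes with a summed mean of at least 1 RPKM, adjusted by Benjamini-Hochberg over all of them (threshold 0.05). A difference on this scale is understated for low genes. Columns of the same number were paired as both alleles of a library. The number of the first S129 column carries a minus sign, which was ignored in this pairing. Over 12642 genes, deviations of same-numbered columns correlated at 0.170 to 0.304, and those of other columns at -0.202 to 0.157. These ranges lie close together. Pairs of genes were compared by the exact sign-flip permutation test. All 10 genes were named, and genes of the other nuclear envelope lists for the highest level of a list, a level at 0 or under 0.1 RPKM, or a call of at least 2-fold. The highest and the lowest gene of each marker list were named, a choice made after their values were seen. The 10 genes are found by symbol alone, but this group and the lists were chosen with earlier results of these data known. The recovery of reads and limma's test were tested on simulated data. The alternatives were other pseudocounts, filters, scalings, lengths, single alleles, windows of 5 Mb or the chromosome, a variance trend, no pairing and each library left out. Scaling by the median of ratios and whole reads not divided by the total were added after seeing the data.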

Additional observations from a re-analysis of the deposited data

Results flagged for a closer look

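In 4 libraries, 25 quantities were examined for a single library far from the others: 10 levels, 10 S129 shares and 5 differences between genes. The level of *Lemd3* was 0.543 RPKM in library 4, against 1.04 to 1.11 RPKM in the other libraries, with 47 and 41 reads on its alleles there. The level of *Tmpo* was 34.4 RPKM in library 4, against 39.5 to 40.3 RPKM in the others. Of the 25 quantities these 2 were flagged, both in library 4, and chance marks about 1 in 20 groups in this way. Scaled by the median of ratios, these levels were 0.576 RPKM for *Lemd3*, against 0.983 to 1.07 RPKM, and 36.4 RPKM for *Tmpo*, against 37.9 to 41.0 RPKM. On this scale the gap of *Tmpo* was smaller than the spread of its other libraries, while that of *Lemd3* was larger.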

How the results depend on the processing

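*Lmna* and *Lemd2* were called higher on CAST under all 15 alternatives, from -1.12 to -0.26 and from -0.69 to -0.55 on the log2 scale, and *Lmnb1* under 14 of 15, all but the fit without the replicate block. *Lbr* was called under 5 of 15, *Sun1* under 11 of 15 and *Tmpo* under 9 of 15. Of the 10 genes, 4 were called higher on CAST and 2 on S129. Without the replicate block, 2 and 0 were called. With no filter on low values 1 gene was called on S129, and with the median of the genes within 10 Mb taken out also 1. Leaving out 1 library gave 3 to 4 genes on CAST and 0 to 1 on S129. The share of all tested genes called under these alternatives is not given here. A change in these counts thus cannot be told apart from a change over all genes. The difference of *Lmnb2* turned to 0.0763 with autosomal values rescaled to one sum and to 0.0288 with whole reads taken without division by their total, and ranged from -0.0589 to 0.000429 with 1 library left out, where the higher value is that without library 3. *Banf1* passed with rescaled values (0.16, adjusted p = 0.0483 by limma) and with the median of its chromosome taken out (0.13, adjusted p = 0.0476). The median level of the group was 13.4 RPKM with the length of all annotated exons, against 25.7 RPKM, and 24.9 to 26.8 RPKM with 1 library left out; the longer lengths themselves give the lower value. The 5 differences between genes kept their direction under all 40 alternatives. None of these alternatives changes which reads cover a SNP, so that limit on levels between genes stays in place. Filtering at 10 RPKM gave no value for *Lemd3* and *Sun2*. The cause of the other changes was not tested. Depth limits *Lemd3* most, and the 4 libraries limit every test between genes.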
